A study of Mus musculus with 20 samples.

Results

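The comparison described here covers the last 24 h of culture of mouse trunk-like structures: 3 bulk RNA libraries of structures grown in Matrigel to 120 h (TLSMG) against 3 libraries of the precursors collected at 96 h. These 6 libraries were taken from the 15 of the series that have an abundance table and from 20 samples in all, by their labels alone. Every library came from the F1G4 mouse embryonic stem cell (mESC) line with the genotype T::H2B-mCherry/Sox2::H2B-Venus, in which a red and a yellow nuclear reporter mark expression of Brachyury (T) and Sox2. Both groups had aggregated for 48 h and then received the same pulse of 3 µM CHIR99021, an inhibitor of the kinase GSK3 that activates WNT signalling. A 96h library pooled 10 structures and a TLSMG library pooled 6, in each case structures picked for an asymmetric pole, so the values describe picked structures of 1 cell line. The labels call the 3 libraries of a group biological replicates. When Matrigel, a gel of basement membrane proteins, was added is not stated in the sources used here. Time and Matrigel change together between 96h and TLSMG, and their shares in a difference cannot be told apart. For this reason the 3 libraries of gastruloids that reached 120 h without Matrigel (Gastruloid, 6 pooled structures each) are given beside the members, with the test of TLSMG minus Gastruloid, which uses the same 3 TLSMG libraries.

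Trunk-like structures build the posterior body from a pool of progenitors that express T and Sox2 and sit at the posterior pole, as the tailbud does in the embryo. WNT and FGF signals keep that pool and the unsegmented presomitic mesoderm in place, while Notch signalling and oscillating genes cut the mesoderm into somites. Hox genes are switched on in order along their clusters as the body axis grows. Cells that leave the pool become somites, neural tube or, in part, endothelium. Matrigel supplies laminin and collagen IV from outside, the same kind of matrix that surrounds somites and the neural tube in the embryo.

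The 2 genes with the largest falls and the 2 with the largest rises whose proximal promoter could be printed are shown first, because the results turn on them. Msgn1 and Tbx6 encode transcription factors of presomitic mesoderm, Igfbp5 a secreted binding protein of insulin-like growth factors, and Cldn5 a tight junction protein of endothelium. Each sequence holds the 250 bases before the start site, 5′ to 3′ on the gene's strand, from RefSeq on GRCm38.p6: Msgn1 at chr12:11208949-11209198 on the minus strand, Tbx6 at chr7:126781233-126781482 on the plus strand, Igfbp5 at chr1:72874866-72875115 on the minus strand and Cldn5 at chr16:18776597-18776846 on the plus strand. Capitals mark matches to the TCF/LEF core CTTTGA or its reverse complement TCAAAG, the letters bound by the factors at the end of the WNT pathway.
Msgn1: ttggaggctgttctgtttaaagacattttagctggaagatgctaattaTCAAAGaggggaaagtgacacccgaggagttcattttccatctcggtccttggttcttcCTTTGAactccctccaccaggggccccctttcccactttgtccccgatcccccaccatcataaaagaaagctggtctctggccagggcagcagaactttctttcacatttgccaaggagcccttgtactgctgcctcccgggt
Tbx6: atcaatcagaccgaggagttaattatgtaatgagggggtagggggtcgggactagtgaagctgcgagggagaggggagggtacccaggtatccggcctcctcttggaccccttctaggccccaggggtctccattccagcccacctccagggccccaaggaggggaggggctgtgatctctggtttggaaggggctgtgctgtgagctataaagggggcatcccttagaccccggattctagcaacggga
Igfbp5: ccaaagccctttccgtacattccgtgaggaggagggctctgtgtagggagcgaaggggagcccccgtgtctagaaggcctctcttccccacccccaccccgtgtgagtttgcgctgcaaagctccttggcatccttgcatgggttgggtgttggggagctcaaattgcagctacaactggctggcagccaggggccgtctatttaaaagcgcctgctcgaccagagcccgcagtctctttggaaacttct
Cldn5: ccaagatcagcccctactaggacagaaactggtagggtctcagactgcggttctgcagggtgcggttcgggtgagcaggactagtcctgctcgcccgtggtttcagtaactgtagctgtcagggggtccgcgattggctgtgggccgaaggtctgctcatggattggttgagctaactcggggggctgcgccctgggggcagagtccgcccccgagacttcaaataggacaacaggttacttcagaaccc
Msgn1 held 2 matches, at bases 49 and 108 counted from the 5′ end, and the other 3 windows held none. The T-box site AGGTGTGA and the ETS site CCGGAAGT, searched on both strands, were in none of the 4 windows. Over all 32544 promoters of this length in the table, 13.9% held the TCF/LEF core, 1.12% the T-box site and 2.9% the ETS site. Among the tested genes whose symbol matched a promoter, the TCF/LEF core stood in 47 of 241 genes that fell by at least 1 log2 (19.5%), in 58 of 588 that rose by at least 1 log2 (9.86%) and in 1177 of 9578 overall (12.3%). The ETS site stood in 3 (1.24%), 11 (1.87%) and 676 (7.06%) of the same genes, and the T-box site in 2 (0.83%), 6 (1.02%) and 71 (0.741%). A match is a description of letters and not a binding site.

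Sequencing depth was compared through the ratio of deposited coverage to FPKM, which is proportional to the aligned bases of a library: it ran from 4.00 to 4.32 at 96h and from 3.78 to 6.84 in TLSMG, with TLSMG replicate 3 the deepest. The 96h libraries had 14043 to 14128 genes with a transcripts-per-million value (TPM) of at least 1, and the TLSMG libraries 14437 to 14494. TLSMG replicate 3 stood apart in the TPM of the highly abundant non-coding RNA Gm42418, with 10283 against 36593 and 35135 in TLSMG replicates 1 and 2 and 27346 to 30692 at 96h. Without this library 5700 genes passed the test in place of 6577. Leaving out a different TLSMG or 96h library gave 5651 to 6024, so the drop was not particular to replicate 3. The cells are labelled mESC, and of the defining genes of that state Pou5f1 had TPM of 85, 134 and 128 at 96h and 28.1, 23.4 and 27.9 in TLSMG, while Nanog had 9.36, 18.6 and 15.7 and 10.3, 8.63 and 10.3.

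Across the 14290 genes tested, 6577 (46%) differed between TLSMG and 96h, 4792 higher (33.5%) and 1785 lower (12.5%), with limma on log2(TPM + 1) and a Benjamini-Hochberg adjusted p under 0.05. All 3 TLSMG values lay outside the range of the 3 values at 96h for 8346 genes (58.4%). The surplus of higher genes depended on the scaling: the median log2 difference of all genes was 0.143 in TPM and -0.012 after median-of-ratios scaling, which called 3194 genes higher and 3299 lower. The share of higher genes among those called was thus 72.9% in TPM and 49.2% after that scaling. List medians below are therefore set beside 0.143. The test of TLSMG minus Gastruloid depended on the scaling as well: 4497 genes were higher and 1125 lower in TPM, and 2763 and 2594 after median-of-ratios scaling. Counts of list members against Gastruloid below are in TPM, so part of a surplus of higher members there comes with the scaling. Differences of at least 1 log2 were found for 1303 genes (9.12%), 932 higher and 371 lower. At 3 log2 or more the counts were 78 and 41. These counts are in TPM. The filter for testing used the mean of all 15 libraries, of which only 3 were from 96h. A gene present at 96h alone thus needed a higher level to be tested than one present in all 120 h groups. A log2 difference here is on the log2(TPM + 1) scale, so it understates the change of genes with low levels. The plot of all tested genes shows these far ends, with Igfbp5 alone above 6 and Cdx1 alone below -6.

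**Figure D1:**
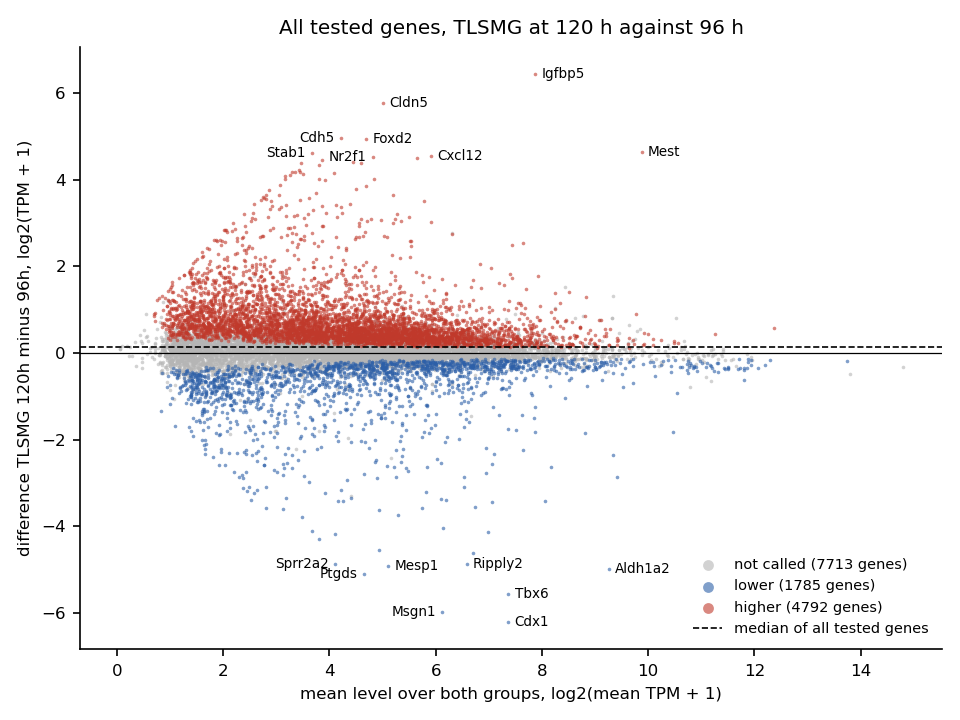
Each point is 1 of 14290 tested genes: the x axis gives its mean level over both groups as log2(mean TPM + 1), the y axis the difference TLSMG 120h minus 96h on the log2(TPM + 1) scale. Red points (4792) were called higher, blue points (1785) lower, the dashed line is the median of all tested genes (0.143), and names mark 8 rises and 8 falls at the far ends.

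The 14 largest rises were Igfbp5, Cldn5, Cdh5, Foxd2, Mest, Stab1, Cxcl12, Nr2f1, Kdr, Sox18, Plvap, Rab3il1, Emcn and Foxd2os, with log2 differences from 6.43 down to 4.33. Cdh5, Cldn5, Kdr, Sox18, Plvap, Emcn and Stab1 are genes of blood vessel endothelium. The largest falls were Cdx1, Msgn1, Tbx6, Ptgds, Aldh1a2, Mesp1, Sprr2a2, Ripply2, Foxh1, Cd2, Lefty2, Cer1, Samd3 and Mesp2, from -6.2 to -4.04. An exon of Sprr2a2 overlaps Sprr2a1 on the same strand, so the split of its reads is uncertain. Mest encodes a hydrolase expressed from the paternal allele and was the most abundant of the rises: TPM was 84.7, 60.8 and 72 at 96h and 1826, 1869 and 1739 in TLSMG. All TLSMG values were far above all 96h values (25-fold in mean TPM, log2 difference 4.64, SE 0.11, adjusted p = 1.0e-11), and Gastruloid stood between them at 1272, 1258 and 1386. An exon of Copg2 overlaps Mest on the opposite strand, and the strand setting used for counting is not given in the sources used here. The same limit holds for 52 of the 235 genes given with values here, Stab1, Nr2f1, Dll1, Fn1, Lef1, Cdkn1c and Pou5f1 among them. Aldh1a2, the enzyme that makes retinoic acid in the trunk mesoderm, was the most abundant of the falls, at 1346, 1166 and 1056 before and 33, 40.0 and 36.8 after (32.5-fold lower in mean TPM, log2 difference -4.98, SE 0.12, adjusted p = 1.0e-11). Its Gastruloid values of 35.5, 41.7 and 45.5 overlapped those of TLSMG. The plot of the named genes by library shows that no 96h value overlapped a TLSMG value for any of the 28, which the naming rule required.

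**Figure D2:**
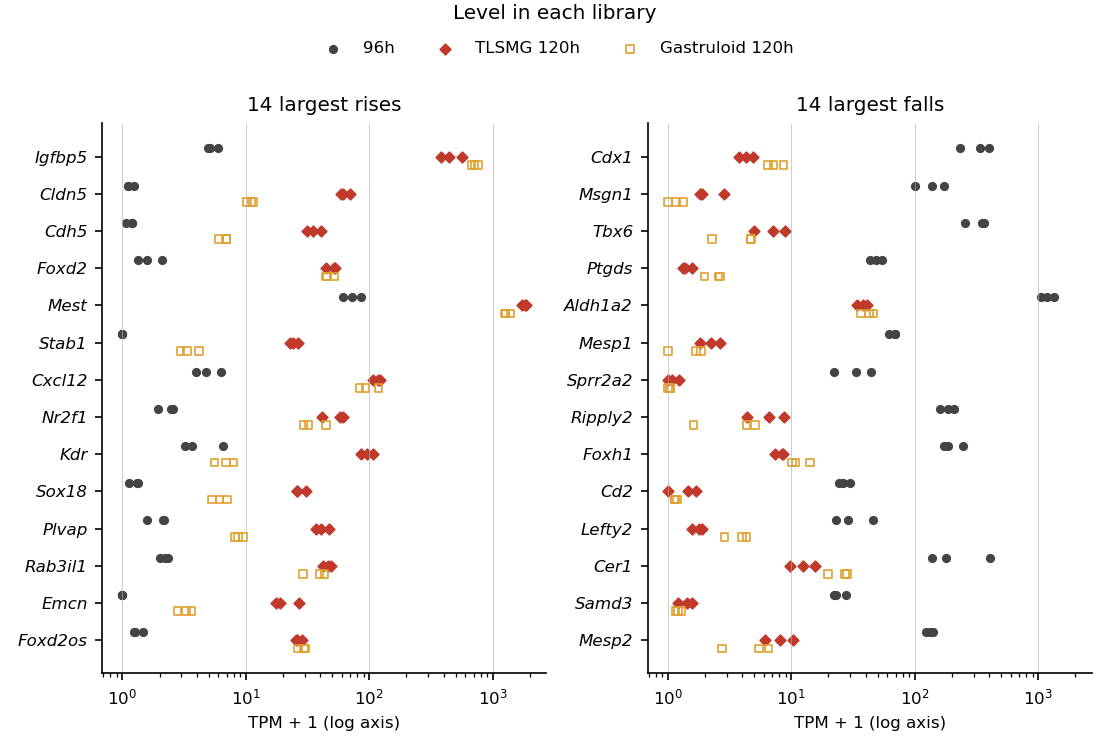
TPM + 1 on a log axis in each of the 3 libraries of 96h (dots), TLSMG 120h (diamonds) and Gastruloid 120h (open squares), for the 14 largest rises (left) and the 14 largest falls (right). Kdr sits at 85.2 to 106 TPM in TLSMG and at 4.59 to 6.93 in Gastruloid, whereas Foxd2 and Aldh1a2 sit at overlapping levels in both 120 h groups.

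The 43 gene lists, which cover tissues, signals, adhesion and metabolism, differed widely in how their members moved. Among lists with 8 or more tested members, the median log2 difference ran from -2.45 for the transcription factors of presomitic mesoderm and tailbud to 2.59 for endothelium. Counts of members called against 96h stand beside 33.5% higher and 12.5% lower over all genes. In bulk RNA, a lower value from fewer cells of a type and one from less RNA per cell cannot be told apart, and the same holds for higher values. The plot of the lists of that size orders them by this median.

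**Figure D3:**
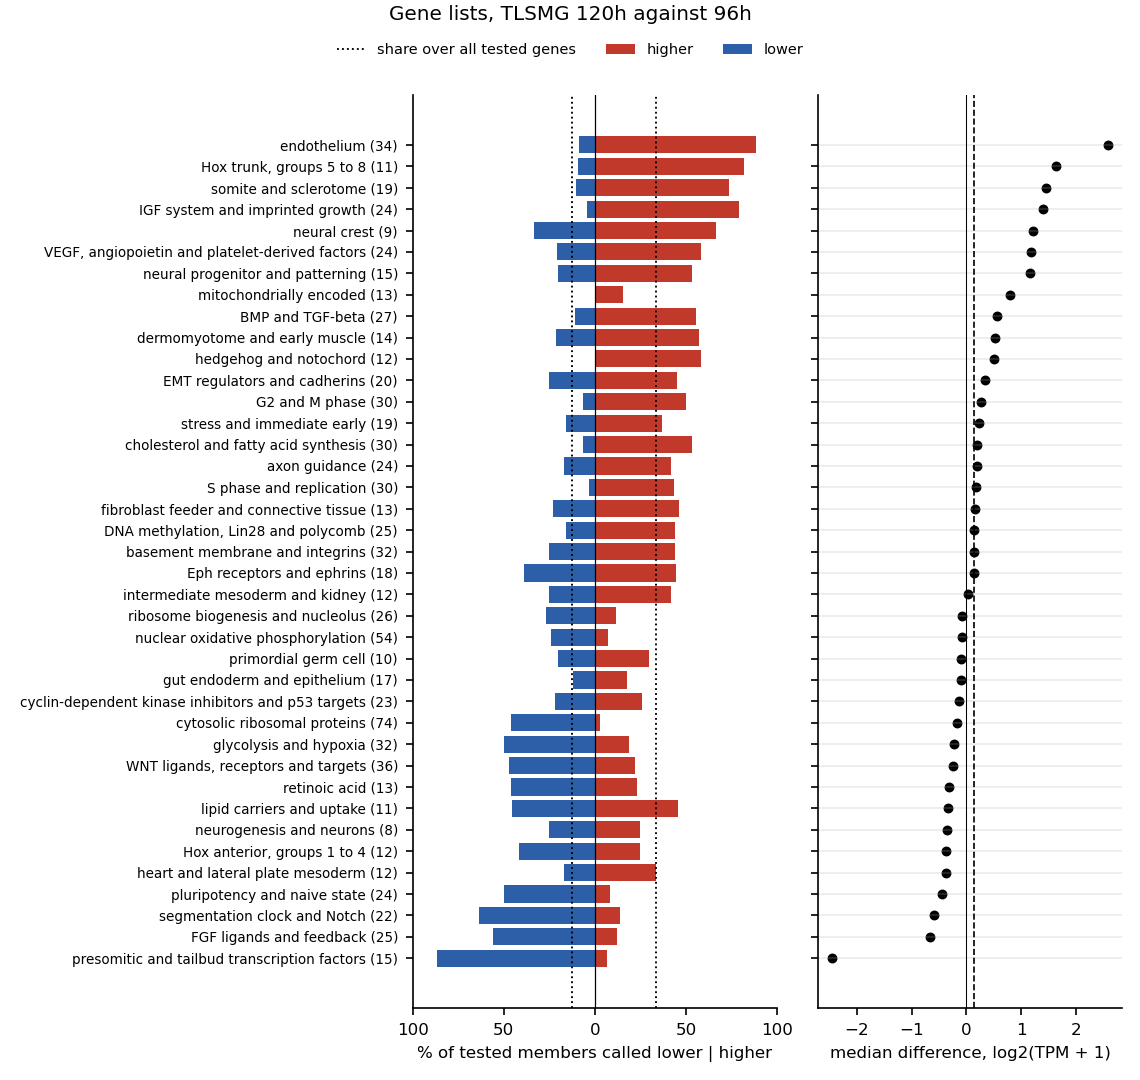
Left, for each list with 8 or more tested members, the share of these called higher (red, to the right) or lower (blue, to the left) in TLSMG 120h than at 96h, with the number of tested members in brackets and dotted lines at the shares over all tested genes (33.5% higher, 12.5% lower). Right, the median log2(TPM + 1) difference of the list, with a dashed line at the median of all tested genes (0.143); endothelium is at the top (2.59) and the presomitic and tailbud factors at the bottom (-2.45).

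Transcription factors of the presomitic mesoderm and tailbud fell together. Of 15 tested, 13 were lower and 1 was higher, with a median of -2.45 against 0.143 for all genes. Msgn1, which starts the presomitic programme, had TPM of 98.9, 138 and 172 at 96h and 0.892, 0.824 and 1.85 in TLSMG. Tbx6, which keeps presomitic cells from a neural fate, went from 254, 349 and 365 to 6.16, 3.95 and 7.95. Both groups were far apart for each gene, with 96h replicate 1 the lowest of the 96h libraries (log2 difference -5.97, SE 0.22, adjusted p = 2.4e-10 for Msgn1; -5.55 for Tbx6). Mesp1 and Mesp2, which set the next somite boundary, fell by 4.92 and 4.04, and the clock gene Hes7 by 3.4. T itself fell less, from 76.3, 120.0 and 134 to 20.3, 16.7 and 19.4 (log2 difference -2.45, SE 0.19, adjusted p = 3.3e-07). Nkx1-2, a marker of the progenitors that give both neural tube and mesoderm, had values of 84.1, 141 and 184 and 50.4, 44.5 and 58.1: it fell by 1.34, the groups did not overlap, and its TLSMG level stayed well above that of Msgn1 or Mesp1.

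The 3 Cdx genes, homeobox regulators of posterior identity, parted ways. Cdx1 had TPM of 231, 337 and 401 at 96h and only 2.77, 3.32 and 3.88 in TLSMG (log2 difference -6.2, SE 0.19, adjusted p = 7.2e-11). Cdx2 was at 77.3, 115 and 135 and 77.6, 62.8 and 79.2, with ranges that overlapped at their edges and a difference that passed narrowly (log2 difference -0.54, SE 0.21, adjusted p = 0.0453). Without 96h replicate 3 it was -0.37 (adjusted p = 0.188), and the call was also lost without 96h replicate 2 or any 1 of the TLSMG libraries. Cdx4 rose, from 3.0, 5.55 and 6.76 to 15.5, 17.2 and 21.3 (log2 difference 1.68, SE 0.27, adjusted p = 2.3e-04), and was the list's single rise. Sp8, a WNT-responsive zinc finger gene of the tailbud, did not pass the test, with 15.7, 19.4 and 21.2 and 16.5, 18.3 and 19.5 that overlap. Against Gastruloid, 8 of the 15 factors were higher in TLSMG and 1 was lower, where 31.5% and 7.87% of all genes were (39.3% either way). Evx1, a homeobox gene of the tailbud, was among the higher ones, with 5.51, 3.65 and 4.3 in TLSMG and 1.38, 2.35 and 2.87 in Gastruloid (log2 difference 0.79, SE 0.20, adjusted p = 0.00682), and the lower one was Cdx1 at 6.2, 5.48 and 7.64 (log2 difference -0.78, SE 0.19, adjusted p = 0.00678). Gastruloid replicate 1 held the lowest Gastruloid value of all 8, and the calls of Tbx6, Mesp1 and Mesp2 against Gastruloid were lost without it (differences of 0.54, 0.32 and 0.42).

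Notch ligands and clock genes fell, with 14 of 22 tested members lower and 3 higher (median -0.59). Dll1, the ligand that drives somite segmentation, stood at 456, 501 and 495 at 96h and 42.1, 43.5 and 46.8 in TLSMG, with narrow and separate ranges (log2 difference -3.43, SE 0.12, adjusted p = 1.5e-10). Dll3 fell by 3.43, the glycosyltransferase gene Lfng by 2.77, the receptor gene Notch1 by 2.2 and the feedback gene Nrarp by 2.34. Ripply2, which ends Mesp2 and Tbx6 activity in a forming somite, fell by 4.86. Hes1, a Notch target used in many tissues, rose by 0.51 (48.7, 49.7 and 51.6 and 65.7, 73.2 and 76.5). Receptor genes Notch2 and Notch3 fell by 0.94 and 0.45, while the ligand gene Jag2 did not pass the test (0.16).

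Several genes of Nodal signalling, drawn from more than 1 list, fell. Nodal, the ligand, had TPM of 10.9, 17.9 and 15.1 and 1.85, 1.12 and 2.03 (log2 difference -2.54, SE 0.24, adjusted p = 1.7e-06). Its secreted inhibitors fell as well: Lefty2 from 22.1, 45 and 27.8 to 0.8, 0.565 and 0.884, Lefty1 by 2.47, and Cer1 from 404, 179 and 138 to 11.5, 8.79 and 14.7. The 96h values of Cer1 were spread widely, with replicate 1 above the other two, and all lay above TLSMG (log2 difference -4.12, SE 0.30, adjusted p = 1.3e-07). Foxh1, the DNA-binding partner of SMAD2 in this pathway, fell from 243, 186 and 171 to 7.36, 6.44 and 7.5 (log2 difference -4.62, SE 0.16, adjusted p = 1.8e-10). Gastruloid had more of both Lefty genes than TLSMG, with 4.78, 7.61 and 10.4 for Lefty1 (log2 difference -1.45, SE 0.36, adjusted p = 0.00614) and 1.87, 3.32 and 2.99 for Lefty2 (log2 difference -1.07, SE 0.25, adjusted p = 0.00478).

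Among FGF genes, 14 of 25 tested were lower and 3 higher (median -0.66). Receptor and feedback genes aside, all 8 Fgf genes that passed the test were lower. Fgf4 and Fgf3 showed the largest falls, from 19.4, 28.6 and 30.4 to 2.56, 1.55 and 1.54 and from 28, 33.1 and 36 to 2.17, 3.37 and 2.65. Fgf8, the ligand of the tailbud gradient, went from 57.6, 73.2 and 77.3 to 27.3, 21.4 and 27.9 (log2 difference -1.4, SE 0.16, adjusted p = 1.1e-05). Fgf15, Fgf17, Fgf18, Fgf13 and Fgf10 fell by 1.76, 1.29, 1.08, 1.41 and 1.03, and Fgf9 did not pass the test (0.31). Receptor gene Fgfr1 fell by 0.80, and the feedback genes Spry4, Spry2 and Dusp6 by 1.79, 0.66 and 0.60. Spry1, of the same inhibitor family, rose by 0.69.

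WNT genes split by role. Of 36 tested, 17 were lower and 8 higher (median -0.24). Among ligands and their amplifiers, Wnt3a went from 25.2, 37.2 and 40.0 to 2.04, 2.47 and 2.18 (log2 difference -3.42, SE 0.16, adjusted p = 1.9e-09), Wnt8a fell by 3.34, Wnt5b by 1.36 and Rspo3, which strengthens the signal at the receptor, by 2.87 (142, 174 and 169 to 26.9, 17.6 and 20.1). Targets and effectors fell with them, Lef1 from 365, 317 and 305 to 64.9, 64.7 and 75.5, Axin2 by 1.23, Nkd2 by 1.65 and Notum by 1.58. Of the 8 rises 6 were receptors or co-receptors: Fzd8 by 2.92, Fzd3 by 1.1, Fzd2 by 0.62, Lgr4 by 1.56, Lrp5 by 0.56 and Lrp6 by 0.44, the last a call that median-of-ratios scaling ended. Fzd10 fell by 0.82. Fzd8 had 3.41, 2.32 and 1.61 at 96h and 22.7, 24.6 and 26.5 in TLSMG, with 96h well below. Wnt4 was the only ligand called higher (0.87). The secreted inhibitors moved apart, as Sfrp2 rose by 1.76 while Frzb and Sfrp5 fell by 1.62 and 1.85.

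Of 13 tested retinoic acid genes 6 were lower and 3 higher (median -0.32). Beside Aldh1a2, the intake gene Stra6 fell by 1.05, the degrading enzyme gene Cyp26a1 by 1.74 and the binding protein gene Crabp1 by 2.62 (551, 458 and 467 to 68.8, 103 and 69.4). Rdh10, the enzyme before Aldh1a2 in synthesis, rose by 1.03 (11.2, 7.38 and 7.11 to 21, 17.1 and 16.6) and was also higher than in Gastruloid at 6.51, 7.13 and 6.35 (log2 difference 1.32, SE 0.16, adjusted p = 1.2e-04). Crabp2, a relative of Crabp1, rose by 1.38, with 114, 180.3 and 214 and 335, 535 and 439.

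The Hox genes changed by position in their clusters. Of the 12 genes of groups 1 to 4, 5 were lower and 3 higher (median -0.37). In groups 5 to 8, 9 of 11 were higher and 1 lower (median 1.63), and all 4 tested genes of group 9 were higher (median 3.03), the remaining 12 genes of groups 9 to 13 being below the filter. Hoxb1, of the first group, had 227, 228 and 224 at 96h and 34.7, 36.9 and 41.8 in TLSMG (log2 difference -2.56, SE 0.11, adjusted p = 1.3e-09). Hoxc6 had 1.26, 3.04 and 3.08 and 44, 52.2 and 45.7, and Hoxa9 had 0.0446, 0 and 0.0914 and 11.6, 9.59 and 13.3. Both ranges were fully apart, with Hoxa9 near 0 in all 96h libraries (log2 difference 3.57, SE 0.22, adjusted p = 3.3e-08). Within group 5, Hoxb5 fell by 0.95 while Hoxa5 and Hoxc5 rose by 0.72 and 1.18. Many Hox genes overlap antisense RNAs, among them Hoxb5, Hoxa7 and Hoxa3, so their reads could be shared. An exon of Hoxc5 overlaps Hoxc10 on the same strand, so the split of its reads is uncertain as well. Against Gastruloid, 6 of 12 genes of groups 1 to 4, 4 of 11 of groups 5 to 8 and 1 of 4 of group 9 were higher and none was lower, beside 31.5% and 7.87% of all genes. The TLSMG minus Gastruloid difference was 0.19 for Hoxc6, -0.16 for Hoxc9 and -0.16 for Hoxb9, none of them called. The difference was 0.94 for Hoxd8 and 0.72 for Hoxa5. Hoxd9, the called gene of group 9, was at 10.1, 8.23 and 7.8 in TLSMG and 0.573, 1.53 and 2.16 in Gastruloid (log2 difference 2.05, SE 0.23, adjusted p = 8.8e-05).

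**Figure D4:**
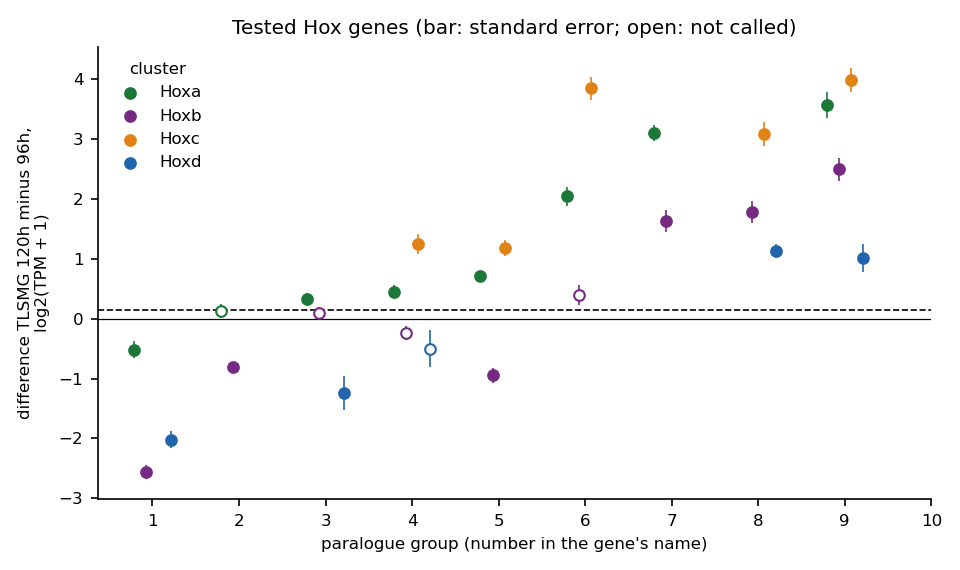
Difference TLSMG 120h minus 96h on the log2(TPM + 1) scale for each tested Hox gene, by the paralogue number in its name and coloured by cluster; bars are standard errors from the fit, filled points were called and open points were not, and the dashed line is the median of all tested genes. The lowest point is Hoxb1 and the highest are Hoxc9 and Hoxc6.

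Genes of formed somites and their cartilage-forming part, the sclerotome, rose in 14 of 19 cases and fell in 2 (median 1.44). Foxd2, a forkhead gene of somites, had TPM of 1.09, 0.58 and 0.327 and 51.2, 43.8 and 52.2, and its non-coding neighbour Foxd2os rose by 4.33. Pax1, which marks sclerotome, was at or near 0 at 96h (0.0273, 0.0814 and 0) and reached 12.6, 18.7 and 19.6 in TLSMG, below all 3 Gastruloid values of 55.2, 61 and 69 (log2 difference -1.82, SE 0.14, adjusted p = 8.6e-06). Uncx and Meox2 rose by 2.58 and 3.4, the first with TLSMG replicate 3 highest (18.4, 21.2 and 31.2). Other forkhead genes went the other way: Foxc2 fell from 401, 321 and 303 to 119, 109.6 and 132, and Foxc1 by 0.91. Tcf15, needed for somites to become epithelial, did not pass the test, with 264, 173 and 159 at 96h and 127, 135 and 201 in TLSMG overlapping, although it passed as lower after median-of-ratios scaling (-0.53, adjusted p = 0.024) and without TLSMG replicate 3 (-0.56, adjusted p = 0.0182). It was lower than in Gastruloid (log2 difference -0.77, SE 0.18, adjusted p = 0.00499).

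In the dermomyotome, the part of the somite that gives muscle and skin, 8 of 14 tested genes rose and 3 fell (median 0.53). Lbx1, a marker of migrating muscle precursors that some spinal neurons share, had TPM of 0.653, 0.245 and 0.693 at 96h, 13.1, 15.7 and 13.5 in TLSMG and 0.352, 0.248 and 0.3 in Gastruloid. TLSMG was above both others in every library (log2 difference 3.31, SE 0.15, adjusted p = 1.3e-09 against 96h; log2 difference 3.54, SE 0.15, adjusted p = 2.9e-08 against Gastruloid). Met, the receptor such precursors need, did not pass against 96h (-0.17) but stood at 24.8, 21 and 21.4 in TLSMG and 4.84, 6.24 and 6.57 in Gastruloid. Pax3 and Pax7 rose by 0.85 and 1.21, and Eya1, which acts before muscle commitment, by 0.93. The muscle regulators Myf5, Myod1 and Myog were below the filter. Among the 3 falls were the contractile genes Tnni1 and Actc1 (2.35 and 1.19).

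Neural progenitor genes rose in 8 of 15 cases and fell in 3 (median 1.17). Sox1, which marks committed neural progenitors, had 0.744, 0.757 and 1.77 at 96h and 13.6, 21.5 and 18.4 in TLSMG, and Pax6 had 0.492, 0.663 and 0.844 and 5.31, 15 and 11.3. For both, replicate 1 was the lowest TLSMG library and still above all of 96h (log2 difference 2.69, SE 0.36, adjusted p = 4.9e-05 for Pax6). Sox3 rose by 2.21, yet its 61, 86 and 75.6 lay below the Gastruloid values of 191, 174 and 149 (log2 difference -1.2, SE 0.22, adjusted p = 0.00113). Zic2 and Gbx2, active in early and posterior neural plate, fell by 1.07 and 0.68. Msx1, a gene of the dorsal neural tube and mesoderm, did not pass against 96h (13.1, 14.7 and 15.7 and 11.9, 26.3 and 18.2), except without TLSMG replicate 1 (0.57, adjusted p = 0.0102), and was higher than in Gastruloid (2.98, 2.56 and 2.75; log2 difference 2.33, SE 0.20, adjusted p = 1.3e-05). Of 27 genes of neurogenesis and neurons, 19 were below the filter, Neurog2 and Dcx included. Hedgehog pathway genes rose in 7 of 12 tested cases and fell in none. Boc and Cdon, which encode co-receptors, rose by 1.87 and 1.57, and Gli2 by 1.79. The target gene Ptch1 did not pass (0.21), and the ligand gene Shh was below the filter.

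All 9 tested genes of the neural crest list passed the test, 6 higher and 3 lower, but the genes that define crest, Sox10, Foxd3 and Tfap2a, were below the filter. The rises were led by Twist2, Ets1 and Snai2 (3.69, 3.13 and 2.91), which mesoderm and endothelium also express. Snai2 had 1.43, 1.27 and 1.41 at 96h, 18.2, 16.4 and 15.8 in TLSMG and 2.9, 3.77 and 5.93 in Gastruloid, with TLSMG above both in every library. Snai1, its relative in the ingressing mesoderm, fell from 113, 117 and 121 to 33.3, 26.2 and 29.7 (log2 difference -1.95, SE 0.12, adjusted p = 2.4e-08).

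Endothelial genes had the highest median of the lists with 8 or more tested members. Of 34 members, all tested, 30 were higher and 3 lower (median 2.59), and 30 were higher than in Gastruloid with none lower, beside 31.5% and 7.87% of all genes. Cdh5, the adhesion gene of endothelial junctions, had TPM of 0.198, 0.0718 and 0.193 at 96h, 40.0, 34 and 30.4 in TLSMG and 6.0, 5.0 and 5.95 in Gastruloid. Kdr, the main VEGF receptor, had 5.55, 2.7 and 2.22, 106, 94.8 and 85.2 and 4.59, 5.89 and 6.93 in the same order. The TLSMG values of both were above all others, and TLSMG replicate 1 was the highest (log2 difference 4.49, SE 0.36, adjusted p = 3.4e-07 for Kdr against 96h; log2 difference 3.83, SE 0.36, adjusted p = 2.4e-05 against Gastruloid). Emcn and Lyl1 were listed at 0 in every 96h library and at 26.1, 17.8 and 16.5 and 5.66, 4.65 and 5.07 in TLSMG. Regulators rose with them: Etv2, the factor that starts the lineage, from 4.22, 3.69 and 3.58 to 22.3, 18.9 and 21.5, Erg by 3.87, Tal1 by 2.15, Sox7 by 2.65 and Gata2 by 1.89. Nos3, Vwf and Robo4, which encode a nitric oxide synthase, a clotting factor carrier and a vessel guidance receptor, rose by 2.56, 1.61 and 1.5.

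The 3 endothelial falls were Aplnr, Apln and Lmo2. Aplnr, a receptor also found in early mesoderm, had 126, 147 and 146 at 96h, 55.6, 45.9 and 42 in TLSMG and 8.18, 10.6 and 11.6 in Gastruloid: it fell by 1.53 and remained above Gastruloid (log2 difference 2.14, SE 0.17, adjusted p = 8.6e-06). Apln, its ligand, fell by 1.12. Lmo2 values overlapped between the groups (24.9, 52.8 and 63.7 and 20.8, 34.8 and 21.5) and its call was lost without 96h replicate 2 or 3 or TLSMG replicate 1 or 3 (differences of -0.52 to -0.68). Blood was hardly detected, with 16 of 19 blood and erythroid genes, globins, Gata1 and Klf1 included, below the filter and summed TPM of 9.9 to 13.6 at 96h and 8.4 to 10.1 in TLSMG. Of the 13 macrophage genes 12 were below the filter, with sums of 4.2 to 6.0 and 2.1 to 3.7.

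Ligands and receptors around the vessel genes rose in 14 of 24 cases and fell in 5 (median 1.17). Tek and Tie1, the angiopoietin receptors, rose by 4.22 and 4.16, and the ligand gene Angpt1 by 1.55. Vegfc rose by 0.99 (5.18, 6.13 and 6.22 to 12.7, 12.6 and 12.4) whereas Vegfa fell by 0.37 (32, 22.8 and 20.9 to 18.8, 18.6 and 19.6). Without 96h replicate 1, the highest of its group, the Vegfa difference was -0.19 (adjusted p = 0.0551). Cxcl12, a chemokine that guides migrating cells, had 5.34, 3.78 and 2.96 at 96h and 117, 106 and 120.1 in TLSMG (log2 difference 4.55, SE 0.16, adjusted p = 1.8e-10), and its receptor gene Cxcr4 fell from 50.9, 38.6 and 44 to 12.2, 18.9 and 16.7 (log2 difference -1.44, SE 0.14, adjusted p = 2.6e-06). Gastruloid had 82, 92.6 and 118 for Cxcl12, overlapping TLSMG.

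BMP and TGF-beta genes rose in 15 of 27 tested cases and fell in 3 (median 0.55), and 16 were higher than in Gastruloid with 3 lower, beside 31.5% and 7.87% of all genes. Acvrl1, the receptor of this family in endothelium, had 0.218, 0.0591 and 0.105 and 8.64, 9.14 and 11.2 (log2 difference 3.24, SE 0.22, adjusted p = 5.7e-08), and Bmpr1a, Bmpr1b and Bmpr2 rose by 0.58, 0.88 and 0.55. The target genes Id2, Id3 and Id1 rose by 2.75, 1.62 and 0.67. Id2 was spread in TLSMG, with replicate 1 at the top of 186, 114 and 110.2. Secreted antagonists went both ways: Grem1 rose from 0.0696, 0.0691 and 0.0557 to 4.65, 4.63 and 2.98 and Nog by 1.07, and both were higher than in Gastruloid (2.15 and 1.44), whereas Cer1 and Fst fell by 4.12 and 0.54. Gdf11, a ligand that acts on posterior Hox expression, rose by 1.66, while Bmp2, Bmp4 and Tgfb1 did not pass (-0.09, -0.32 and -0.36).

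Genes of the insulin-like growth factor system and imprinted growth genes, which are expressed from 1 parental allele and regulate growth, rose together: 19 of 24 were higher and 1 was lower (median 1.39). Their summed TPM was 1070 to 1352 at 96h, 4940 to 5415 in TLSMG and 3883 to 4446 in Gastruloid, with Mest the largest single part in TLSMG. Igfbp5 had 4.16, 3.96 and 4.95 at 96h, 384, 443 and 565 in TLSMG and 708, 672 and 756 in Gastruloid: it rose 106-fold in mean TPM, and all TLSMG values were below all Gastruloid values (log2 difference -0.63, SE 0.21, adjusted p = 0.0259). This last call was lost without Gastruloid replicate 1 or 3 or TLSMG replicate 1 or 2, with adjusted p from 0.0618 to 0.0986. Igf1, the ligand, was near 0 at 96h (0.0102, 0.0102 and 0) and at 10.7, 10.5 and 8.72 in TLSMG, above 1.45, 1.95 and 1.8 in Gastruloid (log2 difference 2.0, SE 0.13, adjusted p = 1.7e-06). Igf2 did not pass the test (194, 86.9 and 266 and 277, 612 and 622; log2 difference 1.51, SE 0.61, adjusted p = 0.0586), and its values were spread widely within both groups. It passed with only the 2 groups in the fit (adjusted p = 0.0324), without TLSMG replicate 1 (1.90, adjusted p = 0.0383) and without 96h replicate 3 (1.85, adjusted p = 0.0447). Of the paternally expressed genes, Plagl1, Dlk1, Peg3 and Peg10 rose by 3.44, 3.04, 1.78 and 1.72. Of the maternally expressed genes, Cdkn1c, a brake on the cell cycle, rose by 2.53, and the non-coding RNAs Meg3, Rian and Mirg of the Dlk1 locus by 1.39, 1.56 and 1.54. The single fall was Phlda2, a maternally expressed gene that restrains placental growth, from 66.4, 70.6 and 79 to 5.03, 4.26 and 4.12 (log2 difference -3.74, SE 0.17, adjusted p = 1.4e-09). Peg3, Peg10, Rian and Dlk1 were also higher than in Gastruloid (log2 differences of 1.26, 1.38, 0.92 and 1.99).

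Matrix and adhesion genes changed in both directions. Of 32 basement membrane and integrin genes 14 were higher and 8 lower (median 0.14, equal to that of all genes to 2 decimals). Fn1, which encodes the fibronectin laid down around presomitic mesoderm, had 1397, 1133 and 1073 at 96h and 166, 139 and 189 in TLSMG, a 7.29-fold fall (log2 difference -2.86, SE 0.14, adjusted p = 3.4e-09). Laminin genes Lama1 and Lamb1 fell by 1.11 and 0.53, while Lama4, the laminin of vessels, rose by 2.12. Among collagen genes, Col18a1 rose by 1.68 and, outside this list, Col3a1 by 3.37 and the cartilage collagen Col2a1 by 3.51, while Col4a5 did not pass (0.15). Among integrins, Itga9 rose from 5.73, 5.04 and 4.57 to 37.5, 36.7 and 39.7, Itga6, a laminin receptor chain, from 16.4, 22.7 and 30.0 to 49.5, 53 and 59.5, and Itga1, a collagen receptor chain, fell by 1.73. Nid1, a linker of laminin and collagen IV networks, rose by 0.86 and was higher than in Gastruloid (log2 difference 1.32, SE 0.20, adjusted p = 4.0e-04).

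Cadherin genes changed in both directions. The epithelial cadherin gene Cdh1 fell from 35.5, 39.8 and 36.5 to 14, 9.36 and 10.8, and the paraxial protocadherin gene Pcdh8 and its relative Pcdh19 fell by 3.2 and 3.37. Cdh11 and Cdh6, of mesenchyme and of neural tube and kidney, rose by 2.92 and 2.7. Cdh11 had 6.8, 4.1 and 3.15 at 96h and 42.4, 37.1 and 42.4 in TLSMG, with no overlap. The mesenchymal filament gene Vim rose by 1.14, and TLSMG was also above Gastruloid (286, 276 and 234 and 159, 142 and 134). Eph receptor and ephrin genes, which set tissue boundaries, split into 8 higher and 7 lower of 18. Epha1, Epha4 and Efnb2, the last 2 active at somite boundaries, fell by 2.52, 1.73 and 1.41, whereas Ephb3 and Efna5 rose by 1.7 and 1.05. Of 24 axon and vessel guidance genes 10 were higher and 4 lower, beside 33.5% and 12.5% of all genes. Nrp1, a co-receptor for VEGF and semaphorins, went from 5.68, 1.59 and 1.03 to 54.8, 52.2 and 49.5 (log2 difference 4.02, SE 0.36, adjusted p = 1.0e-06), Plxnd1 rose by 2.57 and Sema3a by 2.64, while Slit3 fell from 63, 63.7 and 63.9 to 15.9, 15.2 and 17.4.

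Of 32 glycolysis and hypoxia genes 16 were lower and 6 higher (median -0.23). Aldoc fell from 64.1, 60.6 and 59.4 to 12.2, 10.0 and 15.1, the lactate exporter gene Slc16a3 by 1.6 and the hypoxia-induced Ddit4 by 1.78. Ndrg1, another gene induced by low oxygen, rose by 1.88 (2.69, 2.05 and 1.74 to 10.5, 10.3 and 10.8), so members known for the same trigger went in opposite directions. Of 74 ribosomal protein genes 34 were lower and 2 higher (median -0.17), and 57 were lower and none higher after median-of-ratios scaling. Rpl12 had 2939, 2946 and 2912 at 96h and 2089.8, 2118 and 2247 in TLSMG (log2 difference -0.45, SE 0.054, adjusted p = 1.9e-05). Their summed TPM was 164657 to 167811 at 96h, 140382 to 151119 in TLSMG and 168009 to 177471 in Gastruloid, and the 3 ranges did not overlap. Ribosomal protein genes have many pseudogene copies, to which the authors' counting could have assigned reads.

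Mitochondrially encoded RNAs summed to 6889 to 7147 TPM at 96h, 9312 to 14554 in TLSMG and 3198 to 4004 in Gastruloid, 3 ranges that did not overlap. Of the 13 genes 2 passed the test against 96h, where 46% of all genes did (median log2 difference 0.80). Against Gastruloid 12 were higher, where 31.5% of all genes were (median log2 difference 1.68). With only TLSMG and 96h in the fit 10 passed, after median-of-ratios scaling none did, and without any 1 of the 6 libraries at most 1 did. TLSMG replicate 1 held the highest values of 11 of the 13, and for mt-Atp6 it stood alone at the top of 2424, 304 and 356. The mt-Atp6 difference did not pass (log2 difference 1.31, SE 0.62, adjusted p = 0.0979), but did without TLSMG replicate 2 (1.85, adjusted p = 0.0334). Of 54 nuclear genes of oxidative phosphorylation, 4 were higher and 13 lower (median -0.08), and median-of-ratios scaling called 30 lower and none higher.

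Genes of cholesterol and fatty acid synthesis rose in 16 of 30 cases and fell in 2 (median 0.20), a count that dropped to 7 higher and 4 lower after median-of-ratios scaling. Idi1, an isomerase early in cholesterol synthesis, had 68.1, 27.2 and 32.4 at 96h, 129.6, 104 and 125 in TLSMG and 28.8, 40.8 and 35.4 in Gastruloid, and TLSMG was the highest in every library (log2 difference 1.58, SE 0.34, adjusted p = 0.00192). Genes of lipid carriers and uptake went both ways, with 5 of 11 tested higher and 5 lower (median -0.35). After median-of-ratios scaling 3 were higher and 5 lower. Among the higher ones, the fatty acid transporter gene Cd36 rose from 6.27, 5.02 and 4.82 to 40.1, 34.9 and 44 (log2 difference 2.68, SE 0.15, adjusted p = 9.9e-09). Of the genes of G2 and M phase 15 of 30 were higher and 2 lower (median 0.26), with Kif20b up by 0.99, Cenpf by 0.86 and Mki67 by 0.74. After median-of-ratios scaling 11 of the 30 were higher and 4 lower (median 0.09). S phase genes were higher in 13 of 30 cases in TPM but in 6, with 9 lower, after median-of-ratios scaling, so no direction is given for them. Cyclin genes Ccnd1 and Ccnd2 rose by 1.0 and 1.03, within a list of cell cycle inhibitors and p53 targets that held 6 higher and 5 lower genes of 23 (6 and 10 after median-of-ratios scaling). Of the p53 targets in it, Cdkn1a and Phlda3 fell by 1.17 and 1.77, Trp53inp1 and Gadd45a rose by 0.76 and 0.81, and Mdm2 and Bax did not pass (-0.14 and -0.05). Lin28b rose from 33.7, 37.3 and 40.7 to 67.6, 66.7 and 67.7 while its relative Lin28a fell by 0.37, and the RNA-binding gene Igf2bp2 rose by 0.77. Dnmt3b, a de novo DNA methyltransferase, fell by 0.89, and Tet3 rose by 0.91.

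Markers of cell types that such structures could also hold were read in the same way. Over all genes 33.5% were higher and 12.5% lower than at 96h. Of 24 tested pluripotency genes 12 were lower and 2 higher (median -0.45), and Sox2, which neural cells share, was one of the rises (17.6, 27.4 and 32.1 to 67.4, 90.3 and 84.1). Zfp42, Nanog, Dppa5a and Utf1 did not pass against 96h (-0.24, -0.49, 0.07 and -0.41), although Nanog passed as lower after median-of-ratios scaling (-0.64, adjusted p = 0.0391) and without 96h replicate 1 (-0.75, adjusted p = 0.0152). Of 10 tested germ cell genes 3 were higher and 2 lower, and Ifitm1, also a gene of posterior mesoderm, fell from 1066, 1088 and 1078 to 212, 196 and 224. Gut genes were called in 5 of 17 cases, where 46% of all genes were. Among them Foxa1 and Krt19 rose by 1.63 and 1.43, and Trh, a neuropeptide precursor gene, fell from 267, 181 and 140.5 to 17.8, 11.2 and 17.7. Of 12 tested heart and lateral plate genes 4 were higher and 2 lower, close to the shares of all genes. Against Gastruloid 5 were higher and 1 lower, beside 31.5% and 7.87% of all genes. The heart genes Nkx2-5, Tbx5 and Hand2 were below the filter. Mef2c rose by 1.37 and Myl4, an atrial myosin gene, fell by 1.59. Wt1, a gene of intermediate mesoderm and body cavity lining, was listed at 0 in every 96h library and at 5.44, 7.77 and 5.47 in TLSMG, above 1.01, 1.5 and 2.53 in Gastruloid (log2 difference 1.46, SE 0.18, adjusted p = 1.3e-04). Of 12 tested genes of intermediate mesoderm and kidney 5 were higher and 3 lower (median 0.02). Lhx1 and Cited1, among the lower ones, fell by 2.48 and 3.08. Since the cells had been grown on feeders before aggregation, fibroblast genes were counted: 6 of 13 were higher and 3 lower, with sums of 113 to 149 at 96h and 161 to 182 in TLSMG. Postn, Lum and Dcn, which define fibroblasts, were below the filter.

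Of the 28 named genes 9 belonged to no list, and further genes outside the lists were picked after their values were seen. Nr2f1 and its relative Nr2f2, nuclear receptors of mesenchyme and veins, rose by 4.52 and 3.64, and Nr2f1 went from 1.56, 1.46 and 0.95 to 57.4, 60.7 and 40.3 (a non-coding RNA, A830082K12Rik, lies opposite it). Hapln1, which links hyaluronan in the matrix, rose from 0.768, 0.394 and 0.722 to 30.2, 24.1 and 21.3, against 2.58, 1.83 and 2.78 in Gastruloid. Rasip1, needed for vessel lumens, rose by 4.15. Stab1, a scavenger receptor of endothelium and macrophages, was listed at 0 in every 96h library and at 25.2, 23.3 and 21.9 in TLSMG, and Hopx, an atypical homeobox gene, rose by 4.18. Among the falls, Ptgds, a prostaglandin synthase gene, went from 52.8, 47.8 and 42.4 to 0.56, 0.388 and 0.323, and Cd2, known from T cells, from 25.2, 28.7 and 23.2 to 0.451, 0 and 0.698. Vrtn, a gene known for its link to vertebral number, fell by 3.1. By gene class, 34.8% of 11897 protein-coding genes were higher and 12.7% lower, against 37.9% and 11.5% of 182 long intergenic non-coding RNAs. The shares were 25% and 9.79% of 1461 processed pseudogenes and 39.2% and 10.8% of 120 processed transcripts. More genes were lower than higher among 188 antisense RNAs (20.2% higher, 22.9% lower) and 78 microRNAs (11.5% and 28.2%).

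The libraries of each group differed among themselves, and the same library was often at the end of the range for the genes of a list. At 96h, replicate 1 held the lowest value of 14 of the 15 presomitic and tailbud factors, where it was lowest for 38.6% of all genes. It held the highest value of 13 of 19 somite genes, 11 of 12 heart and lateral plate genes and 20 of 27 BMP and TGF-beta genes, where it was highest for 34.6% of all genes. In TLSMG, replicate 1 was highest for 28 of 34 endothelial genes and 11 of 17 gut genes (22.1% of all genes) and lowest for 13 of 15 neural progenitor genes and 26 of 30 G2 and M phase genes (50.7% of all genes). TLSMG replicate 3 was highest for 59 of 74 ribosomal protein genes (47.1% of all genes). Whether the pools of structures differed in makeup was not tested. The plot of the highest library per list gives these shares.

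**Figure D5:**
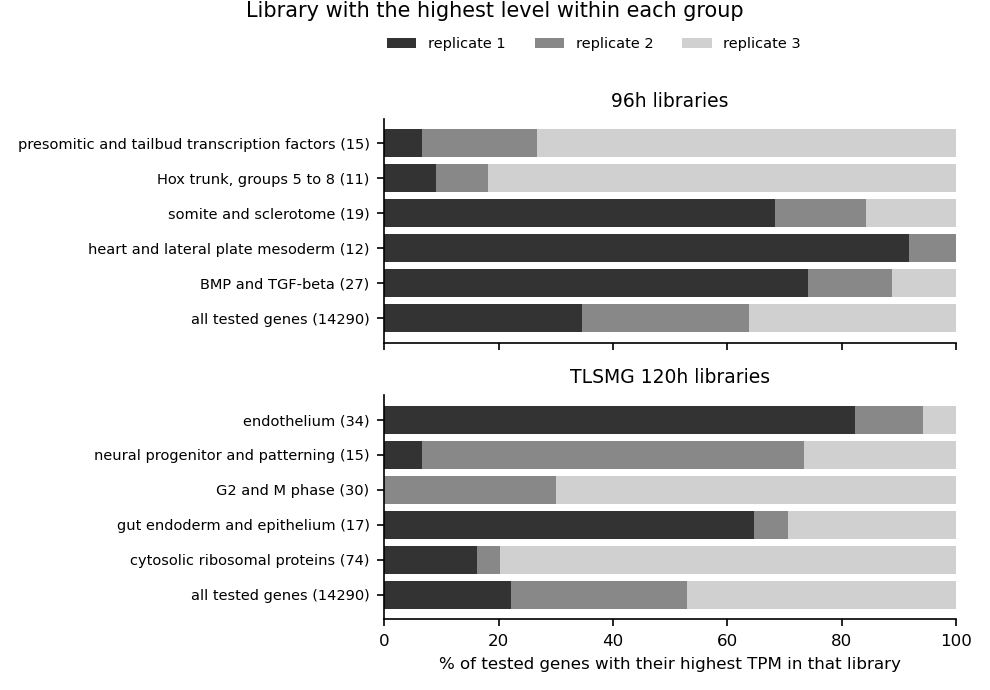
For selected lists (tested members in brackets) and for all tested genes, the share of genes whose highest TPM within the group was in replicate 1 (dark), 2 (grey) or 3 (light), for the 3 libraries of 96h (top) and of TLSMG 120h (bottom). Replicate 1 takes 82.4% of endothelial genes in TLSMG and 91.7% of heart and lateral plate genes at 96h.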

How the data were processed

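Bulk RNA-seq libraries from a stranded kit were processed by the authors. The tools and build named are cutadapt 2.4, STAR 2.7.3a, StringTie 2.0 and mm10, per the submitters' processing notes. The deposited tables give TPM, FPKM and coverage per gene, per the file headers. TPM is a share of each library, so a change in abundant RNAs shifts all other genes. TPM rows of 1 gene ID were summed, and FPKM and coverage served an alternative and the depth. Genes whose TPM averaged 1 or more across 15 libraries of 5 groups (14290 of 54446 gene IDs) were fitted with limma 3.58.1 in R 4.3.3, two-sided, on log2(TPM + 1), with a trend in the prior variance and Benjamini-Hochberg adjustment over all tested genes at 0.05. The test code was tested on simulated data. Tables and figures were made with Python 3.11.15, numpy 2.4.6, pandas 2.3.3 and matplotlib 3.10.9.

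Members and gene lists were chosen with earlier results of these data known. Named genes were the 14 largest called rises and falls whose higher group averaged 5 TPM or more, with a gene name other than a clone or Gm number, and no overlap of libraries, and up to 3 called rises and falls per list. Further list members were named for their role after their values were seen, and some members are not reported here by name. Gene coordinates matched GENCODE M21 for 53492 IDs, which gave overlaps, and promoters came from RefSeq on GRCm38.p6. Alternatives were another pseudocount, no filter or a stricter one, median-of-ratios scaling, FPKM, only the groups compared, a replicate block and each library left out. Single-cell and other samples without an abundance table were not analysed here.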

Additional observations from a re-analysis of the deposited data

Results flagged for a closer look

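For 20 of the 28 genes with the largest changes, the change from 96h to 120 h differed between culture in Matrigel and without it, by limma's test of TLSMG minus Gastruloid. Of all tested genes 39.3% passed that test. The 28 had been chosen by differences that use the same TLSMG libraries, with high TLSMG values for the rises and low ones for the falls. Endothelial genes and the scavenger receptor gene Stab1 ended higher in TLSMG, with log2 differences of 3.83 for Kdr, 2.82 for Stab1, 2.69 for Emcn, 2.53 for Cldn5, 2.42 for Cdh5, 2.24 for Plvap and 2.17 for Sox18. Of the other rises, Nr2f1 and Mest ended higher by 0.61 and 0.47, and Igfbp5 had a difference of -0.63. Among the falls, presomitic genes ended higher in TLSMG, with 0.94 for Ripply2, 0.89 for both Msgn1 and Tbx6, 0.80 for Mesp2 and 0.59 for Mesp1. These levels were low in both groups: Msgn1 had TPM of 0.892, 0.824 and 1.85 in TLSMG and 0, 0.167 and 0.328 in Gastruloid. Cdx1, Ptgds and Foxh1 had -0.78, -0.74 and -0.52, and the Nodal inhibitor genes Lefty2 and Cer1 had -1.07 and -1.0. Calls of Igfbp5, Nr2f1, Tbx6, Mesp1, Ripply2, Foxh1, Cer1 and Mesp2 were lost when 1 of the 6 libraries was left out. In FPKM the calls of Msgn1, Nr2f1, Mesp1, Mesp2 and Ripply2 were lost, and all of these but Msgn1 also after median-of-ratios scaling. With only the groups compared in the fit, those of Tbx6, Mesp1, Mesp2 and Ripply2 were lost. Without a filter on low values, those of Igfbp5, Foxh1, Mesp1, Mesp2 and Ripply2 were lost. Calls were gained as well. Aldh1a2 passed as lower than Gastruloid after median-of-ratios scaling (-0.32, adjusted p = 0.0356) and in FPKM (-0.32, adjusted p = 0.0349). Foxd2os passed as lower in FPKM (-0.26, adjusted p = 0.0138), and Rab3il1 as higher without Gastruloid replicate 3 (0.435, adjusted p = 0.0358).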

How the results depend on the processing

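The number of genes that differed between TLSMG and 96h was 6577 and ran from 5039 (mean TPM of at least 5) to 7707 (no filter on low values) over the other filters, pseudocount, scaling, FPKM and 2-group fits, and from 5651 to 6024 with 1 library left out. A minimum difference of 1 log2 left 1303 genes, and 436 of 5622 for TLSMG minus Gastruloid, which ran from 4264 to 5173 with 1 library left out. Higher genes made up 72.9% of those called in TPM, 49.2% after median-of-ratios scaling (3194 higher, 3299 lower) and 61.7% in FPKM (3950 higher, 2457 lower). For TLSMG minus Gastruloid they made up 80.0% in TPM and 51.6% after median-of-ratios scaling. Of 382 differences of named genes, 334 kept direction and side of the threshold under every alternative run. Only the ribosomal protein gene Rpl30 changed sign among those called, to -0.049 after median-of-ratios scaling (adjusted p = 0.475); the cause was not tested. Same-numbered libraries did not deviate together (correlations of -0.026, -0.065 and -0.064 for TLSMG with 96h, and -0.048, -0.075 and 0.032 for TLSMG with Gastruloid), and the main fit did not pair them. The correlations cannot show whether same-numbered libraries were collected together. With the replicate number as a block 6381 and 5382 genes were called, and Igf2 passed (adjusted p = 0.0437). The deposited values hold no read counts, and 3 libraries a group limit the precision.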
